A study of Mus musculus with 8 samples.

Results

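Toll-like receptors are membrane proteins that recognise molecules of microbes and of damaged cells. The 10 mouse Toll-like receptor genes Tlr1, Tlr2, Tlr3, Tlr4, Tlr5, Tlr6, Tlr7, Tlr8, Tlr9 and Tlr13, of 21887 protein-coding genes in the annotation, were followed across 5 lists of ATAC-seq peaks. ATAC-seq maps open chromatin by letting a transposase cut and tag accessible DNA. The members were fixed by name, and a peak was assigned to a gene when it overlapped the gene or its 10 kb flanks by at least 1 bp. Such a peak is called a locus peak here.

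The mice carry the Rb family Triple Knock Out, a liver cancer model that lacks the retinoblastoma family of cell cycle repressors, and all sorted cells were YFP-positive, which marks recombination of the floxed alleles by Cre. Cells came from digested liver or from visible lesions and were sorted by flow cytometry on Thy1 and EpCAM. The 8 samples fall into 5 groups: EpCam_High_CK19 with 2 samples, EpCam_High_Sox9 with 1, Thy1+ CK19 with 2, Thy1+ Sox9 with 1 and Epcam- with 2. The peak lists are named EpCAM-high (CK19, then Sox9), Prog-like (CK19, then Sox9) and Tumor (Sox9 only), and the 5 counts given for a gene below follow this order unless stated. Only the EpCAM-high lists share a name with a sample group, and the other 3 lists are described under the names the authors gave them. What CK19 and Sox9 stand for in the names, the strain, the age and the promoter driving Cre are not given here by the sources, no treatment was given, and no list came from cells with an intact Rb family. With 1 list per condition no difference below has a replicate error or a test.

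After binding a ligand, Toll-like receptors signal through the adaptors MyD88 and TRIF to kinases of the IRAK and TBK1 families and on to NF-kB and IRF transcription factors, which switch on cytokine genes. TLR1, TLR2, TLR4, TLR5 and TLR6 act at the cell surface, where they bind lipopeptides, lipopolysaccharide or flagellin. TLR3, TLR7, TLR8, TLR9 and TLR13 act in endosomes and bind nucleic acids. In the liver, Kupffer cells, the resident macrophages, are known for strong Toll-like receptor responses to bacterial products from the gut, and bile duct cells, endothelial cells and stellate cells also carry some of the receptors.

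The start regions of the receptor genes fell into sets by the lists that held a peak there, and 7 of them are shown because the sets differ in these letters. Sequences are from RefSeq, build GRCm38.p6 (mm10), each covering 250 bases before to 50 bases after an annotated start and printed 5′ to 3′ on the gene's strand. A window was matched for 8 of the 10 genes, and Tlr4 and Tlr7 are named only. Tlr1 (chr5:64933509-64933808, minus strand), Tlr9 (chr9:106222348-106222647, plus), Tlr13 (chrX:106143025-106143324, plus) and Tlr8 (chrX:167264280-167264579, minus) had a start peak in both Prog-like lists and in no other list. Tlr2 (chr3:83841559-83841858, minus) and Tlr3 (chr8:45410331-45410630, minus) had a start peak in all 5 lists, and Tlr5 (chr1:182954538-182954837, plus) in all lists except Tumor Sox9. Capitals mark GAGGAAG, a core of the sites bound by the myeloid factor PU.1, or GGGCGG, the GC box, on either strand.
Tlr1: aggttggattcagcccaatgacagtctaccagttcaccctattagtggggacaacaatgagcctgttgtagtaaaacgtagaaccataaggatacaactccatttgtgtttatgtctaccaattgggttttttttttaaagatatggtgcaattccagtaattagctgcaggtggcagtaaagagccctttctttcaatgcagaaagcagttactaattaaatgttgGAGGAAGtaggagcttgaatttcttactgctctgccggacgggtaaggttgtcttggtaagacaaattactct
Tlr9: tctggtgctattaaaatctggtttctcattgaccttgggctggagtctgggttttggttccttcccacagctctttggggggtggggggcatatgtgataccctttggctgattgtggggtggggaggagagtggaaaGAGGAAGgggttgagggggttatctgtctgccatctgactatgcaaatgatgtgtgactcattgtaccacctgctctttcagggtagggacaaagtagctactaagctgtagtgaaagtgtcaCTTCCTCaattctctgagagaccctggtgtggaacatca
Tlr13: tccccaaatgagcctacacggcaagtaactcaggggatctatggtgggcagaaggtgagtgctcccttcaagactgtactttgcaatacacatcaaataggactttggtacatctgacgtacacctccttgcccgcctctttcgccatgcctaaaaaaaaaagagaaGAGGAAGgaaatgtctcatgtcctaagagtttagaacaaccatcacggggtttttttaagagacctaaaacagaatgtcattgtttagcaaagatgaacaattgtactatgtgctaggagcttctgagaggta
Tlr8: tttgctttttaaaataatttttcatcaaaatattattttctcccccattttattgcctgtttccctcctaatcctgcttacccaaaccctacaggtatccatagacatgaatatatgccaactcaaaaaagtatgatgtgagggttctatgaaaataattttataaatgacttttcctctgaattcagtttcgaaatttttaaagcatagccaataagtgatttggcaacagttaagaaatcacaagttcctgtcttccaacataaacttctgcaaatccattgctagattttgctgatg
Tlr2: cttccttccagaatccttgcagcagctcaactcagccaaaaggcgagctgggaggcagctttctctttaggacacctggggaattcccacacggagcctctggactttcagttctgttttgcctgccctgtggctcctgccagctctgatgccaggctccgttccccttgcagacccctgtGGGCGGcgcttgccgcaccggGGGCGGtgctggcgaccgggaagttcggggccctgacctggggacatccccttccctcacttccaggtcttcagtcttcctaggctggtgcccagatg
Tlr3: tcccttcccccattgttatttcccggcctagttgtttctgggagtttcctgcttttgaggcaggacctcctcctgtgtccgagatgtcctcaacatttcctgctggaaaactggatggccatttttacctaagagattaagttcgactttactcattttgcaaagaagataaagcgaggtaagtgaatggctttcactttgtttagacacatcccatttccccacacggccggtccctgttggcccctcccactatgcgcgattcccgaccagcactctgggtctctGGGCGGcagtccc
Tlr5: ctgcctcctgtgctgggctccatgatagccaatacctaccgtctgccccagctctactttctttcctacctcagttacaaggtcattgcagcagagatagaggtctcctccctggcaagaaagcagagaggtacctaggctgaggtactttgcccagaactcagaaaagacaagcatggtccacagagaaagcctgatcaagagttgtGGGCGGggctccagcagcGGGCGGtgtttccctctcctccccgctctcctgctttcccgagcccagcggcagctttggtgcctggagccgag

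The PU.1 letters occurred in the windows of Tlr1 (bases -23 to -17 from the start), Tlr9 (-112 to -106, and on the other strand 11 to 17) and Tlr13 (-83 to -77), and the GC box in those of Tlr2 (from -69 and -48), Tlr3 (37 to 42) and Tlr5 (from -42 and -24). The Tlr8 window held neither. In the windows shown, the 3 genes with a GC box were the 3 with a start peak in the EpCAM-high lists. The 3 with the PU.1 letters had theirs in the Prog-like lists alone. These letters were marked because they differ between the sets, so the split was part of the choice and is no support for a link. The C/EBP letters given below crossed the sets, at Tlr3 as well as at Tlr8 and Tlr13. Tlr1 has another window (chr5:64932650-64932949, minus) that also held a start peak of both Prog-like lists alone and holds no PU.1 letters. Of all 21263 start windows in the table, 13.6% hold the PU.1 letters and 46.2% the GC box. A start peak in both Prog-like lists and neither EpCAM-high list was found for 6.77% of windows with the PU.1 letters and 2.78% of those without, and a start peak in all 5 lists for 65.2% of windows with a GC box and 22.0% of those without. Of 6 further motifs searched on both strands, the AP-1 letters TGANTCA (6.99% of all windows) occurred for Tlr9, the C/EBP letters TTGCNNAA (10.2%) for Tlr3, Tlr6, Tlr8 and Tlr13, and the NF-kB letters GGGNNTTCC (6.3%) for Tlr2. The interferon-stimulated response element (3.35%) occurred for Tlr6. The ETS-IRF composite element (2.53%) and the TEAD letters GGAATG (13.6%) occurred for none. The share with a start peak in both Prog-like lists and neither EpCAM-high list differed for other motifs too. With and without the letters it was 9.54% and 3.1% (interferon-stimulated response element), 6.33% and 3.24% (ETS-IRF) and 4.78% and 3.21% (AP-1). For C/EBP it was 4.53% and 3.18%, for NF-kB 4.03% and 3.27%, for TEAD 3.32% in both, and for the GC box 2.03% and 4.43%. No match of the PU.1 letters or the GC box in these windows overlapped a match of another motif, and a match describes letters, not binding.

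The lists held 56932, 59454, 71375, 67855 and 39644 peaks, and their read depth is unknown. Because longer lists hold more peaks anywhere, each count is also given for the 39644 strongest peaks of every list, called equal length. Of all protein-coding genes, 75.8%, 74.6%, 74.5%, 72.4% and 68.8% had a locus peak in the 5 lists. Among the receptor genes 8, 10, 10, 10 and 6 had one, so presence alone set the genes little apart from the rest. The number of peaks did so more: the genes held 17 and 24 peaks in the EpCAM-high lists, 56 and 58 in the Prog-like lists and 8 in Tumor Sox9. Per 1000 peaks of the list these were 0.299, 0.404, 0.785, 0.855 and 0.202, and at equal length the counts were 15, 18, 35, 33 and 8. The median receptor gene held 1, 2, 5.5, 5.5 and 1 locus peaks, against 2, 2, 2, 2 and 1 for all protein-coding genes and 1, 2, 2, 2 and 1 for the 9305 genes within the receptors' length range of 4.28 to 27.2 kb.

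**Figure D1:**
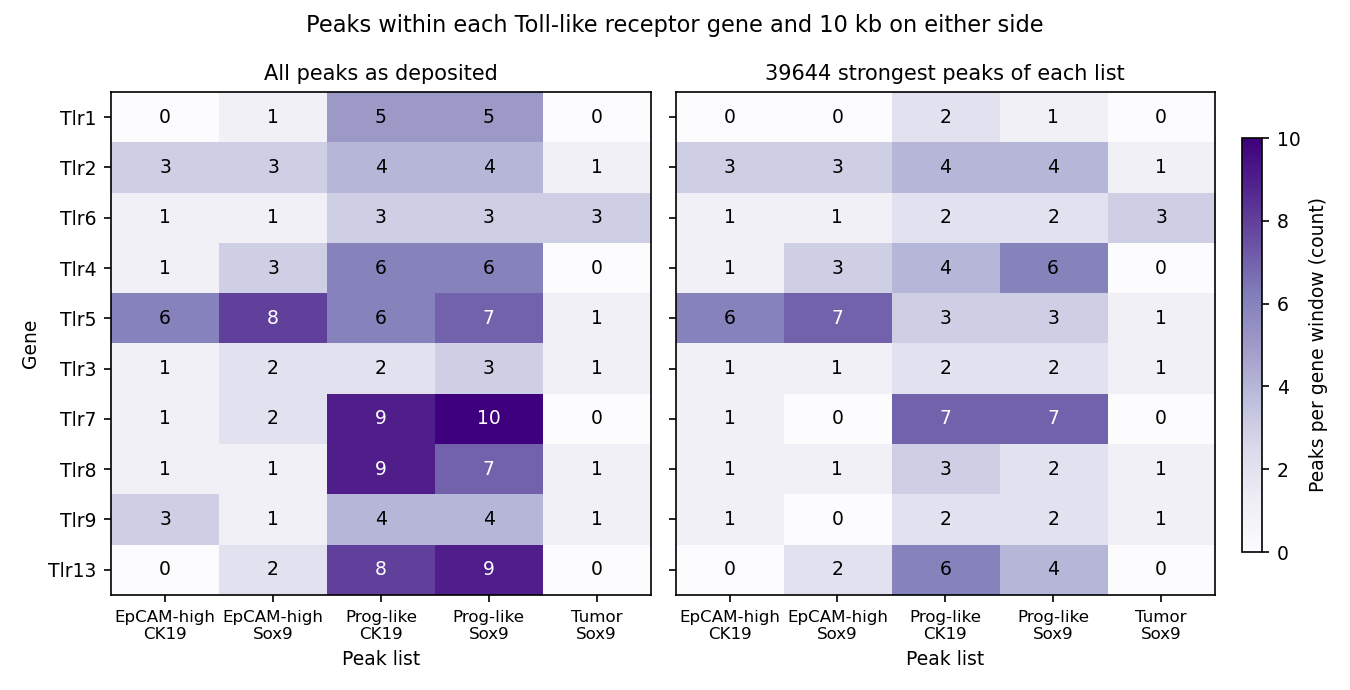
Locus peaks (count) of each receptor gene in the 5 lists, as deposited on the left and for the 39644 strongest peaks of each list on the right. Tlr7, Tlr8 and Tlr13 hold 7 to 10 peaks in the Prog-like lists and 0 to 2 in the others as deposited, while Tlr5 holds 6 to 8 in both EpCAM-high and both Prog-like lists.

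A gene was called for a list when it held at least 2 times as many locus peaks as in the other list and at least 3 more, a rule added after the counts were seen. By it 5 of 10 receptor genes (Tlr1, Tlr4, Tlr7, Tlr8 and Tlr13) were called for Prog-like over EpCAM-high in the CK19 set, against 15.2% of all protein-coding genes. In the Sox9 set 6 were called, these 5 and Tlr9, against 12.0% of all genes. None was called for EpCAM-high over Prog-like in either set, where 4.55% (CK19) and 6.79% (Sox9) of all genes were. At equal length 3 and 2 receptor genes were called for Prog-like, against 6.47% and 6.15% of genes, and 1 in each set, Tlr5, for EpCAM-high, against 5.27% and 5.54%. Counted without a minimum, Prog-like held more peaks than EpCAM-high at 9 of 10 genes in each set, as 42.5% and 36.4% of all genes did, the exception being Tlr5. A locus peak in Prog-like CK19 and none in EpCAM-high CK19 was found for 2 receptor genes, Tlr1 and Tlr13 (5.77% of all genes), and the reverse for none (7.1%).

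TLR1, TLR2 and TLR6 recognise bacterial lipopeptides, TLR2 as the shared partner in dimers with either of the others. Tlr2 (chr3:83836272-83841824) held 3, 3, 4, 4 and 1 locus peaks, and the same numbers at equal length. A region over its start (chr3:83840948-83842002) was open in all 5 lists, with the highest point of the peak, the summit, 170, 90, 170, 166 and 27 bp downstream of the annotated start at 83841608. Of the regions around it, 1 upstream (chr3:83844990-83845550) was shared by EpCAM-high Sox9 and both Prog-like lists, with summits 0 to 50 bp apart. The EpCAM-high lists alone shared a flank region 7724 bp beyond the other gene end (chr3:83828154-83828548), while the Prog-like lists alone shared a region within the gene (chr3:83839327-83840125) and another 1602 bp upstream (chr3:83843426-83843999). Tlr2 was thus open at its start in every list, with some of the peaks around it shared and others not.

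Tlr1 (chr5:64924680-64933600) held 0, 1, 5, 5 and 0 locus peaks, and 0, 0, 2, 1 and 0 at equal length. Its start region (chr5:64933372-64933881) was a peak of the Prog-like lists alone, with summits at -41 and -51 bp from the annotated start. In both Prog-like lists the peak with the highest −log10 q at the gene, 83.3 and 56.8 as the authors give them, was in a region 1051 bp beyond its other end (chr5:64922638-64923629). Tlr6 (chr5:64953092-64970942) lies 19.5 kb from Tlr1 and held 1, 1, 3, 3 and 3 locus peaks, and 1, 1, 2, 2 and 3 at equal length. The region it shared across all 5 lists (chr5:64969103-64970624) also overlaps the neighbouring gene Fam114a1, which starts at 64970075, so it cannot be assigned to Tlr6 alone. Within the gene, a wide region of the Prog-like lists (chr5:64959463-64961904) had summits 5 bp apart. No region fell in the windows of both Tlr1 and Tlr6.

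TLR4 is the receptor for lipopolysaccharide of Gram-negative bacteria. Tlr4 (chr4:66827551-66846581) held 1, 3, 6, 6 and 0 locus peaks, and 1, 3, 4, 6 and 0 at equal length. It held the best ranked receptor peak of 4 lists, at rank 985, 2315, 868 and 1604 of each list (the top 1.73%, 3.89%, 1.22% and 2.36%), while Tumor Sox9 had no peak at the gene. That peak lay in a region at the lower-coordinate gene end (chr4:66827273-66829344), and the lists differed in where it was highest. The strongest summit stood at 66828863 and 66828864 in the EpCAM-high lists and at 66827568 in both Prog-like lists, 1295 and 1296 bp away. The Sox9 lists resolved both places, with a weaker peak in each at the other site (summits 66827567 in EpCAM-high and 66828862 in Prog-like), so both sites were open in both lists and their order was opposite. Within the gene another region (chr4:66841552-66843637), 2086 bp long with −log10 q values of 144 and 155, was found in the Prog-like lists alone, as was 1 region 4763 bp below the gene (chr4:66821998-66822788).

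TLR5 recognises bacterial flagellin. Tlr5 (chr1:182954752-182976044) went against the other receptor genes, with 6, 8, 6, 7 and 1 locus peaks, and 6, 7, 3, 3 and 1 at equal length. Of its 10 merged regions, 5 held peaks of both kinds of list, 2 peaks of the EpCAM-high lists alone and 3 peaks of the Prog-like lists alone. A region in the gene (chr1:182959186-182960387) was open in all 5 lists and held the 1 peak of Tumor Sox9, the best ranked receptor peak there (rank 4957, the top 12.5%). At the start (chr1:182954670-182955320) the strongest Prog-like summits lay 433 bp (CK19) and 316 bp (Sox9) further into the gene than the EpCAM-high summits. The Prog-like lists also shared a region 596 bp before the gene (chr1:182953532-182954156) that the EpCAM-high lists lacked.

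TLR3 recognises double-stranded RNA and is the member that signals through TRIF and not MyD88. Tlr3 (chr8:45395665-45411075) held 1, 2, 2, 3 and 1 locus peaks, and 1, 1, 2, 2 and 1 at equal length, a range of no more than 2 peaks. Its start region (chr8:45409663-45411649) was open in all 5 lists. Both EpCAM-high lists had their strongest summit at 45411175, 100 bp outside the gene, whereas the Prog-like summits stood at 45410430 and 45410270, which is 745 and 905 bp away and inside it. From the annotated start of the window shown above, these summits lay at -795 bp for EpCAM-high CK19 and at -50 and 110 bp for Prog-like CK19 and Sox9. Tumor Sox9 had its summit at 45410357, near the Prog-like place, and EpCAM-high Sox9 had a weaker peak there too, with the summit at 45410322. The other region, 3691 bp upstream (chr8:45414766-45416208), was a peak of the Prog-like lists alone, and its −log10 q values of 195 and 160 put it at the top 5.5% and 5.01% of those lists.

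**Figure D2:**
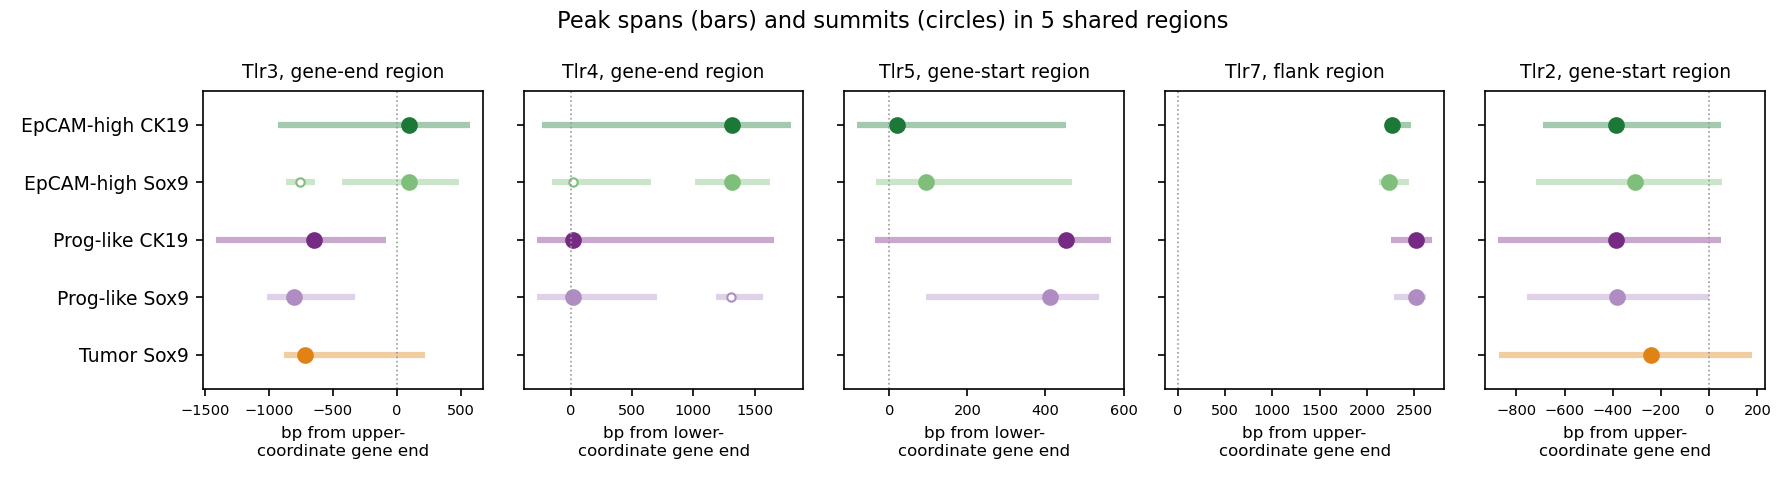
Span (bars) and summit (filled circles for the strongest peak, open circles for weaker ones) of the peaks of each list in 5 regions, in bp from the gene end named under each panel. In the Tlr3 and Tlr4 regions the strongest EpCAM-high and Prog-like summits are 745 to 1296 bp apart, while the CK19 summits at the Tlr2 start are at the same base. With weaker peaks included, the closest Sox9 summits are 52 bp (Tlr3) and 1 bp (Tlr4) apart.

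TLR7 and TLR8 recognise single-stranded RNA, and their genes lie 39.0 kb apart on the X chromosome. Tlr7 (chrX:167303380-167330574) held 1, 2, 9, 10 and 0 locus peaks, and 1, 0, 7, 7 and 0 at equal length. All 9 of its merged regions were held by both Prog-like lists, and 7 of them by no other list. The best supported region (chrX:167315588-167316294) lies within the gene and had −log10 q values of 97.0 and 67.2. Its 2 regions with an EpCAM-high peak had summits 256 and 282 bp (chrX:167332701-167333254) and 1023 bp (chrX:167328409-167329904) from the strongest Prog-like summits. In the latter region a weaker Prog-like Sox9 peak, with its summit at 167329768, stood 14 bp from the EpCAM-high Sox9 summit.

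Tlr8 (chrX:167241123-167264329) held 1, 1, 9, 7 and 1 locus peaks, but 1, 1, 3, 2 and 1 at equal length, so most of the Prog-like peaks there were among the weaker ones of their lists. Of its 9 regions 8 held Prog-like peaks alone. The start region (chrX:167263448-167264409) had summits 106 and 88 bp inside the gene in the Prog-like lists. The exception was a region 7260 bp beyond the other gene end (chrX:167233045-167233863), shared by both EpCAM-high lists, Prog-like CK19 and Tumor Sox9, where EpCAM-high CK19 had its second-ranked receptor peak (−log10 q 139).

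TLR9 recognises unmethylated CpG DNA. Tlr9 (chr9:106222598-106226876), the shortest of the 10 genes, held 3, 1, 4, 4 and 1 locus peaks, and 1, 0, 2, 2 and 1 at equal length. The start region (chr9:106222174-106223453) was a peak of the Prog-like lists alone, and its summits fell at -6 and -22 bp from the annotated start. The surroundings of Tlr9 are dense with genes: of its 7 regions, 2 lie nearest to Twf2 and 2 nearest to Alas1, among them the region of its only Tumor Sox9 peak (chr9:106235738-106236549). The region near Twf2 that 4 lists held (chr9:106211732-106212856) reached the Tlr9 window through the EpCAM-high CK19 peak alone.

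TLR13 recognises bacterial ribosomal RNA in mice and has no human counterpart. Tlr13 (chrX:106143275-106160493) held 0, 2, 8, 9 and 0 locus peaks, and 0, 2, 6, 4 and 0 at equal length. All 8 of its merged regions were held by both Prog-like lists, 6 by no other. The start region (chrX:106142949-106143566) had summits at -63 and -124 bp from the start in the Prog-like lists and no peak in the other lists. The EpCAM-high Sox9 peaks lay outside the gene, 1 in each flank, and the one below it (chrX:106134871-106136716) had its summit 352 bp from that of Prog-like Sox9.

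**Figure D3:**
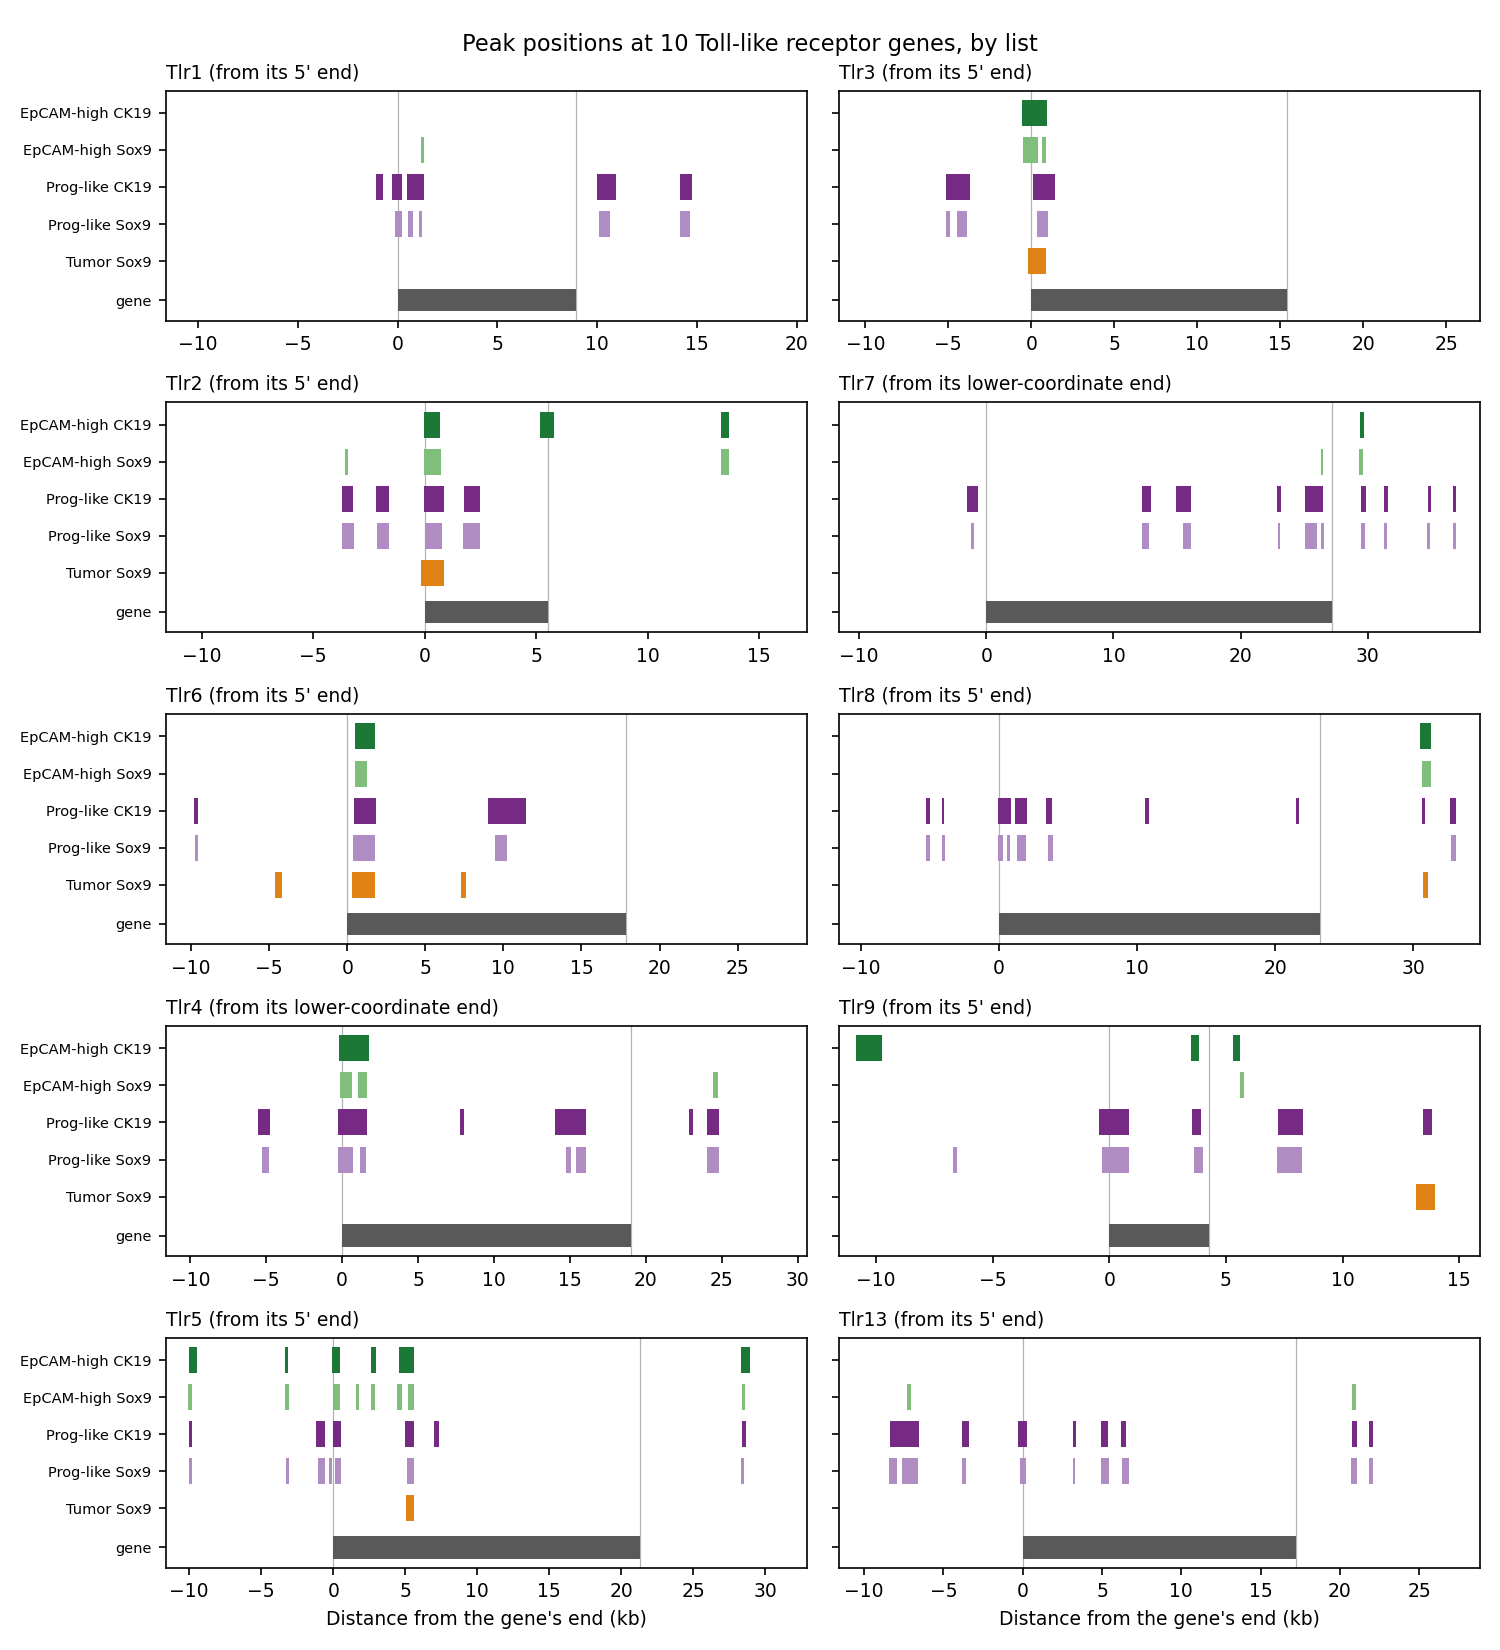
Positions of all locus peaks (coloured bars, 1 row per list) around each receptor gene (grey bar), in kb from the 5′ end or, for Tlr4 and Tlr7, from the lower-coordinate end. Tlr1, Tlr7, Tlr8 and Tlr13 show series of Prog-like peaks with few or no peaks of other lists, and Tlr2, Tlr3 and Tlr6 have peaks of all 5 lists near the 5′ end of the gene span, which for Tlr6 overlaps Fam114a1 and lies away from its start windows.

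By start region, 3, 3, 8, 7 and 2 of the 8 genes with a window had a start peak, against 56.4%, 56.1%, 55.0%, 52.6% and 50.5% of the 17492 genes with a window. Both Prog-like lists and neither EpCAM-high list had a start peak at 4 of 8 (Tlr1, Tlr8, Tlr9 and Tlr13), against 3.06% of genes, and all 5 lists at 2 of 8 (Tlr2 and Tlr3), against 44.5%. Tlr6 had a start peak in Prog-like CK19 alone, whose summit lay at -991 bp from the annotated start. Within 1000 bp of either gene end, 6, 6, 10, 10 and 3 of the 10 genes had a peak, against 57.8%, 57.7%, 57.4%, 54.4% and 51.1% of all protein-coding genes. At these genes the start, open in about as many genes in every list genome-wide, was one of the places where the lists differed.

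Merging overlapping peaks of the 5 lists gave 67 regions in the receptor windows. Both Prog-like lists and no other list held 32 of them (47.8%), 15 in gene bodies and 17 in flanks, against 25.8% of the 138775 merged regions of the genome. All 5 lists held 4 (5.97%, against 9.75% of all regions). EpCAM-high lists alone held 5. Of these both lists held 3 (4.48%, against 9.32%), CK19 alone 1 (1.49%, against 9.99%) and Sox9 alone 1 (1.49%, against 9.27%). Tumor Sox9 alone held 2 (2.99%, against 8.45%), both in the Tlr6 window. At equal length the Prog-like share was 36.2%, against 21.9% of all regions. The excess was concentrated on the X chromosome, where 19 of 26 regions at Tlr7, Tlr8 and Tlr13 were held by both Prog-like lists alone (73.1%, against 27.5% of X-linked regions). On autosomes 13 of 41 were (31.7%, against 25.8%). The lists placed 2.87%, 2.62%, 3.03%, 2.8% and 2.6% of their peaks on the X chromosome and 1, 10, 0, 22 and 17 peaks on the Y chromosome. The counts at X-linked receptor genes were 2, 5, 26, 26 and 1. They come from 3 genes, of which Tlr7 and Tlr8 lie 39.0 kb apart, and the cause of the X-linked excess was not tested.

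**Figure D4:**
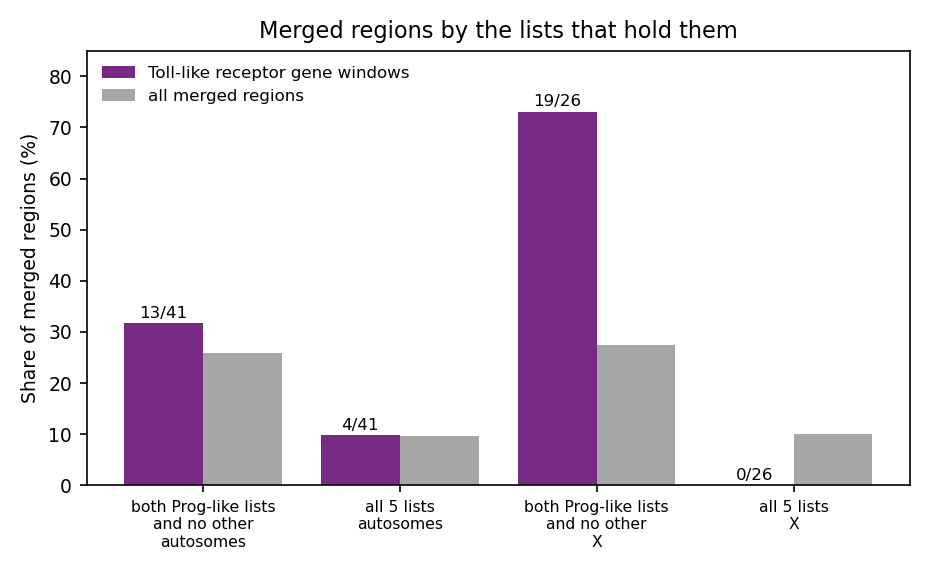
Share (%) of merged regions held by both Prog-like lists and no other list, or by all 5 lists, in the receptor windows (purple, with counts above the bars) and over all merged regions (grey), for autosomes and the X chromosome. The Prog-like share is 73.1% against 27.5% on the X chromosome and 31.7% against 25.8% on autosomes.

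Where 2 lists shared a region, their strongest summits were compared. The Prog-like lists shared 48 receptor regions with a median distance of 28 bp between summits (range 0 to 179 bp), close to the median of 20 bp over all their shared regions. EpCAM-high lists shared 15, with a median of 33 bp (genome 36 bp). Between the kinds of list, the median was 73 bp over 12 shared CK19 regions and 166 bp over 16 shared Sox9 regions, against 47 and 48 bp over all shared regions. Summits over 200 bp apart made up 4 of 12 and 8 of 16, against 16.1% and 16.3% of all shared regions. They were at Tlr3, Tlr4, Tlr5 and Tlr7 for CK19, and at these genes with Tlr1, Tlr6 and Tlr13 in the Sox9 set, where Tlr7 had a pair of them. These distances are between the strongest peaks of a region. When any peaks of the lists in a region were compared, a step added after seeing the data, the medians were 73 and 72 bp (46 bp over all shared regions in each set). Then 4 of 12 CK19 regions and 4 of 16 Sox9 regions lay over 200 bp apart, against 15.2% and 13.7% of all shared regions. The 4 Sox9 regions that dropped out were at Tlr1, Tlr3, Tlr4 and Tlr7, where the closest summits were 115, 52, 1 and 14 bp apart.

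Tumor Sox9 had the fewest locus peaks at the receptor genes. It had none at Tlr1, Tlr4, Tlr7 and Tlr13, which had locus peaks in EpCAM-high Sox9 and in Prog-like Sox9. Of all genes, 8.87% had a locus peak in EpCAM-high Sox9 and none in Tumor Sox9, and 9.36% had one in Prog-like Sox9 and none in Tumor Sox9. Over Tumor Sox9, EpCAM-high Sox9 was called at 2 genes, Tlr4 and Tlr5 (9.35% of all genes), and Prog-like Sox9 at 8, all but Tlr3 and Tlr6 (17.1%). At equal length Prog-like Sox9 was called over Tumor Sox9 at 4 genes, Tlr2, Tlr4, Tlr7 and Tlr13 (6.84%), and Tumor Sox9 over Prog-like Sox9 at none (5.46%). Tumor Sox9 was called over neither, against 1.19% of all genes for EpCAM-high Sox9 and 2.85% for Prog-like Sox9. Tumor Sox9 kept the start peaks of Tlr2 and Tlr3, and it had 2 regions of its own at Tlr6 (chr5:64963327-64963645 within the gene and chr5:64975125-64975586 in Fam114a1).

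Other genes of the pathway were counted from a list of 63, of which 57, 59, 62, 63 and 54 had a locus peak, with 130, 170, 302, 309 and 130 peaks in all. Of all protein-coding genes, 75.8%, 74.6%, 74.5%, 72.4% and 68.8% had one. Prog-like over EpCAM-high calls numbered 29 for CK19 and 18 for Sox9, all 18 among the 29, against 15.2% and 12.0% of all genes. At equal length each set had 12, against 6.47% (CK19) and 6.15% (Sox9) of all genes. In gene bodies alone the calls were 13 and 9, for which no share of all genes was counted. The reverse calls numbered 0 and 1, against 4.55% (CK19) and 6.79% (Sox9) of all genes. The 1 was Sigirr, an inhibitor of receptor signalling (3, 5, 2, 2 and 3). The remaining mouse receptor genes on this list, Tlr11 (1, 0, 4, 4 and 0) and Tlr12 (1, 1, 6, 6 and 2), were called in both sets. At equal length Tlr11 held 0, 0, 3, 3 and 0, but Tlr12 held 1, 1, 1, 1 and 2, with no Prog-like excess. Among 9 co-receptors and chaperones 5 and 3 were called, with Cd14, the lipopolysaccharide carrier, at 2, 2, 5, 4 and 2 locus peaks. Ly96, which encodes the TLR4 partner MD-2, held 1, 1, 4, 3 and 1. Unc93b1, which escorts endosomal receptors from the endoplasmic reticulum, held 1, 1, 4, 4 and 1 and was called in both sets.

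Downstream, where 15.2% and 12.0% of all genes are again the comparison, the counts were 3 and 1 of 6 adaptors, 8 and 3 of 16 kinases and ubiquitin ligases, 4 and 2 of 10 transcription factors and 1 and 1 of 8 inhibitors. Myd88, the common adaptor, held 2, 3, 4, 4 and 2 and was called in neither set. Of 12 target genes 6 were called in both sets (Tnf, Il6, Il1b, Il10, Il12b and Ccl2). At equal length Tnf (0, 1, 2, 0 and 1), Il6 (0, 0, 2, 1 and 0), Il10 (0, 0, 2, 2 and 0) and Ccl2 (0, 1, 1, 2 and 1) met the rule in neither set. There Il1b (0, 0, 3, 3 and 0) met it in both sets and Il12b (1, 0, 3, 3 and 2) in the Sox9 set alone. The cytokine genes Il6 (0, 0, 3, 3 and 0), Il1b (0, 0, 4, 3 and 0) and Il10 (0, 0, 4, 5 and 0) were the only pathway genes with a locus peak in both Prog-like lists and in neither EpCAM-high list, and no pathway gene had the opposite pattern. Of all genes, 5.77% (CK19) and 5.47% (Sox9) had a locus peak in Prog-like and none in EpCAM-high, and 7.1% and 7.72% the reverse. The share of all genes with either pattern in both sets was not counted. Dusp1, a phosphatase that limits MAP kinase signalling, was the called inhibitor in both sets. For these 4 groups the Sox9 counts lay near the share of all genes.

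Several lists of genes that mark cell types moved with these counts. Of 12 macrophage and Kupffer genes, 3, 5, 12, 12 and 3 had a locus peak, with 5, 12, 102, 95 and 7 peaks in all. Adgre1, Clec4f, Vsig4, Marco, Timd4, Lyz2 and C1qa were at 0 in both EpCAM-high lists and in Tumor Sox9. Cd68 differed less (3, 3, 5, 4 and 3). The 4 pan-leukocyte genes held 5, 3, 28, 28 and 2 peaks, the 6 dendritic cell genes 9, 9, 32, 26 and 9, and the 7 endothelial genes 13, 14, 49, 40 and 11. Lyve1 (4, 6, 4, 4 and 2) and Tek (3, 2, 4, 1 and 0) in the endothelial list went the other way in the Sox9 set. At equal length Lyve1 held 3, 4, 3, 3 and 2 and Tek 3, 2, 1, 1 and 0. T and NK cell genes (3, 4, 10, 10 and 4 over 8 genes, Cd3e and Ncr1 at 0 in every list), B cell genes (3, 5, 11, 9 and 3 over 5) and neutrophil genes (2, 6, 10, 11 and 2 over 6, Ly6g and Mpo at 0) held few. Stellate and mesenchymal genes held 8, 11, 18, 17 and 2 over 7 genes, but the list was split. Pdgfrb (1, 2, 9, 8 and 0) and Acta2 (1, 3, 7, 8 and 0) held more in the Prog-like lists. Col1a1 (3, 5, 1, 0 and 1) and Dcn (2, 0, 0, 0 and 0) went the other way. Lrat held 1 in every list, and Thy1 and Des were at 0 in every list.

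Biliary genes went the other way, with 49, 54, 8, 6 and 17 peaks over 8 genes, and Krt19, Krt7 and Cftr were at 0 in both Prog-like lists. Epcam, the sort marker in the same list, did not follow, with 2, 2, 3, 3 and 1 (2, 2, 1, 1 and 1 at equal length). Hepatocyte genes held 16, 20, 9, 7 and 28 over 7, with Alb and Apoa1 at 0 in both Prog-like lists. Hnf4a in that list did not follow, with 5, 5, 5, 5 and 6 (2, 2, 3, 2 and 6 at equal length). Ttr differed in direction between the CK19 and Sox9 sets (1, 3, 2, 1 and 2). The part of these cell types in the receptor counts was not tested, and in sorted bulk cells a smaller share of cells of a type and less open chromatin per cell cannot be told apart.

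**Figure D5:**
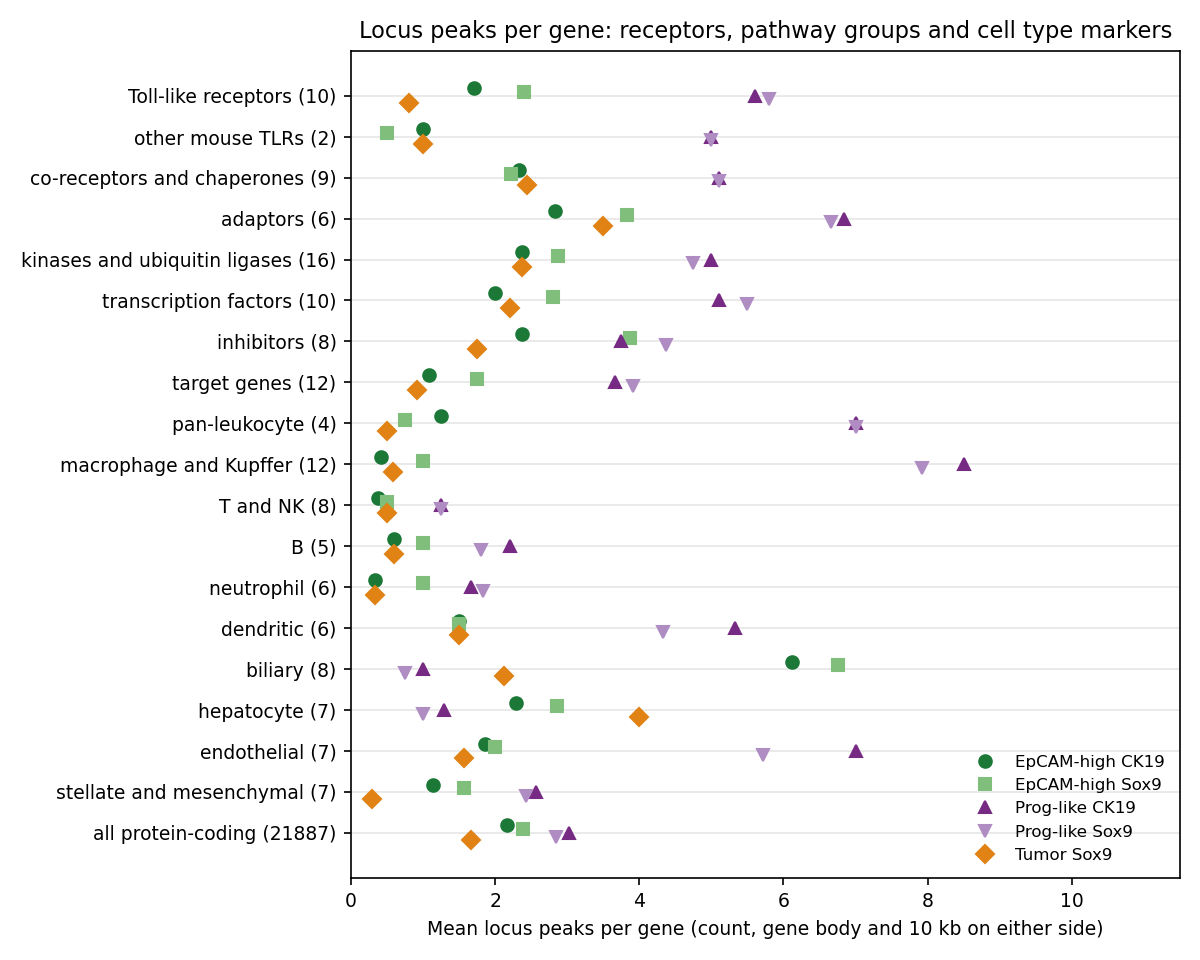
Mean locus peaks per gene (count) for the 10 receptor genes, groups of pathway genes, cell type marker lists and all protein-coding genes, 1 symbol per list; numbers in parentheses are genes. Prog-like lists hold 5.6 and 5.8 peaks per receptor gene, the others 1.7, 2.4 and 0.8, and biliary genes show the opposite order of EpCAM-high and Prog-like.

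Among the 118 pathway and marker genes with at least 5 locus peaks over the lists, those whose peaks were divided among the lists most like those of the receptors were Irf5 (2, 2, 7, 8 and 1), Clec9a (3, 3, 7, 6 and 1), Il12b (1, 3, 7, 7 and 2), Dusp1 (1, 2, 4, 5 and 1) and Irak1 (1, 1, 3, 3 and 1). The measure is the summed absolute difference between the shares of the 5 lists, where 0 means the same division, and it was 0.103, 0.112, 0.12, 0.126 and 0.138 in that order. Map3k7 had the same counts as Irak1. The points are 5 lists, and peaks of long lists weigh more in every gene.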

How the data were processed

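Sorted YFP-positive liver cells were profiled by ATAC-seq, per the labels' protocols. Build mm10 and the tools deepTools, HOMER, MACS2 and Bowtie 1.1.2 are listed without roles, per the submitters' processing notes. The 5 deposited peak lists are in the MACS2 narrowPeak layout, in which the authors' columns hold a fold enrichment (a ratio), a −log10 p and a −log10 q. In each list the lowest −log10 q was 1.3 to 1.32, that of a q of 0.05. The fold and −log10 values are the authors' own and were used only to describe, rank or filter peaks within a list. Whether samples were pooled before calling, how reads were shifted and how duplicates were treated are not stated by the sources used here, and without counts or depths no interval is given.

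Gene ends, start windows and sequences came from RefSeq GRCm38.p6, the same build as mm10. The annotation used here gives no exons, so exons and introns were not separated. Peaks were joined to genes and merged into regions (1 bp overlap or more) in Python 3.11.15 with pandas 2.3.3 and numpy 2.4.6, and the steps were tested on simulated data. Equal length means the 39644 peaks with the highest −log10 p of each list. The call rule (at least 2 times and 3 more locus peaks), the closest-summit comparison and the start windows were added after seeing the data. Alternatives were equal length, −log10 q of 5 or more, gene bodies alone, 50 kb flanks, 50% of the peak, peaks nearest to the gene, a 2500 bp end window and autosomes alone. The receptor genes, pathway and marker lists were chosen with earlier results of these data known. The text names all 10 receptor genes, pathway genes with locus peaks in both Prog-like lists and neither EpCAM-high list or the reverse, Myd88, Cd14, Ly96 and Unc93b1 whatever their values, and the 5 genes most like the receptors. Tlr11, Tlr12, Tnf, Ccl2, Sigirr, Map3k7 and the marker genes named with their lists were picked for naming after their values were seen. Some marker genes are counted in their lists but are not reported here by name.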

Additional observations from a re-analysis of the deposited data

How the results depend on the processing

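No paired analysis was possible because each condition has 1 peak list and the lists carry no replicate numbers, and for the same reason no replicate could be left out. Counts of 5 follow the order EpCAM-high CK19 and Sox9, Prog-like CK19 and Sox9, and Tumor. Summed locus peaks (17, 24, 56, 58 and 8) were 9, 13, 28, 29 and 5 in gene bodies alone and 41, 51, 124, 127 and 21 with 50 kb flanks. At equal length the Prog-like sums were 35 and 33, and on autosomes alone 30 and 32. The Prog-like lists held more than the EpCAM-high and Tumor lists under each of these settings. Regions of both Prog-like lists alone (32) numbered 17 at equal length, 15 in gene bodies, 74 with 50 kb flanks and 13 on autosomes.

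Receptor calls of Prog-like over EpCAM-high in the CK19 set (5, against 15.2% of all genes) were 3 at equal length, against 6.47%. They were 3 in gene bodies, 8 with 50 kb flanks and 2 on autosomes. In the Sox9 set (6, against 12.0%) they were 2 at equal length (6.15%) and 3 in gene bodies and on autosomes. The reverse (0 in each set, against 4.55% and 6.79%) became 1 at equal length in both sets (5.27% and 5.54%) and 1 in gene bodies in the Sox9 set. EpCAM-high over Tumor (2, against 9.35%) became 1 in gene bodies and 6 with 50 kb flanks. Prog-like over Tumor (8, against 17.1%) became 4 at equal length (6.84%) and 5 in gene bodies and on autosomes. Between the EpCAM-high lists (0 in each direction), CK19 was called at 1 gene with −log10 q of 5 or more and Sox9 at 2 with 50 kb flanks. Where no share of all genes is given here, it was not counted, and a wider window can hold more peaks at any gene.

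Presence in 1 list of a pair moved too. The share of all genes stands beside each main count and was not counted for the other settings. Prog-like and not EpCAM-high CK19 (2, against 5.77%) gave 4 in gene bodies, 0 with 50 kb flanks and 1 on autosomes. In the Sox9 set (0, against 5.47%) it gave 3 at equal length, 2 with −log10 q of 5 or more and 3 in gene bodies. Tumor and not EpCAM-high Sox9 (0, against 3.03%) gave 1 at equal length and with −log10 q of 5 or more. EpCAM-high Sox9 and not Tumor (4, against 8.87%) gave 2 at equal length, with 50 kb flanks and on autosomes. Prog-like Sox9 and not Tumor (4, against 9.36%) gave 2 with 50 kb flanks and on autosomes. EpCAM-high CK19 and not Sox9 (0, against 4.06%) gave 2 at equal length and 1 with −log10 q of 5 or more and in gene bodies. The reverse (2, against 2.85%) gave 1 at equal length, with −log10 q of 5 or more and on autosomes and 0 with 50 kb flanks.

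Start peaks (3, 3, 8, 7 and 2) were 4 in Prog-like Sox9 at equal length and 0, 0, 1, 3 and 0 when 50% of the peak had to lie inside the 300 bp window, which many peaks exceed in width. The sign of Prog-like minus EpCAM-high peaks in the Sox9 set turned for Tlr3 in gene bodies alone (-1) and for Tlr5 with 50 kb flanks (4). The causes of these changes were not tested. The other 229 values of main results were equal or stayed within 1.5 times. Many of them were counts of 0 that stayed at 0, such as calls between the Prog-like lists, which say little about stability. Read depth, which is unknown, limits every count.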
